A study of Sus scrofa with 15 samples.

Results

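The genes described here are 10 immediate-early and stress response genes of the pig, *FOS*, *JUN*, *JUNB*, *EGR1*, *IER2*, *MYC*, *ATF3*, *GADD45A*, *GADD45B* and *SGK1*. They were chosen by gene symbol from the 28224 known genes of a table that also held 15070 assembled transcripts without a gene name, and each symbol matched 1 entry. The choice started from a value in the same data, since *SGK1* was high in embryos treated with KDM4A and GSK126 and near 0 in embryos with induced TDG, and the question was whether the other stress genes had the same pattern. The measurements were bulk RNA-seq of 15 libraries in 5 groups of 3. PFF were primary porcine fetal fibroblasts at passages 2 to 5, the cells whose nuclei were transferred. SCNT4c and SCNT8c were untreated somatic cell nuclear transfer embryos at the 4-cell and 8-cell stages. SCNT4c-KG were 4-cell embryos injected with *KDM4A* mRNA, which encodes an H3K9 demethylase, at 1000 ng/µl 5 h after activation, and cultured for the first 48 h with 0.1 µM GSK126, which inhibits EZH2, the enzyme that methylates H3K27. SCNT4c-TDG were 4-cell embryos from donor fibroblasts that had been transfected with a doxycycline-inducible vector for thymine DNA glycosylase (TDG) and selected with puromycin, and they received 500 ng/ml doxycycline from 40 to 72 h. Each embryo library was a pool of 30 embryos. The libraries of SCNT4c-KG combine 2 agents, those of SCNT4c-TDG combine vector, selection and drug, and libraries with 1 agent alone or with the vector without drug were not analysed here.

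Immediate-early genes are transcribed within minutes of a stimulus without new protein synthesis, because their promoters are already bound by factors such as serum response factor and CREB that kinases of the MAPK pathways activate. *FOS*, *JUN* and *JUNB* encode subunits of the dimeric factor AP-1, *EGR1* encodes a zinc finger factor, *IER2* a short-lived nuclear protein and *MYC* a regulator of growth. *ATF3* is a target of the integrated stress response, *GADD45A* and *GADD45B* encode small proteins that act in growth arrest and DNA repair and have been linked to active DNA demethylation together with TDG, and *SGK1* encodes a kinase that glucocorticoids, serum and osmotic stress induce. In cultured fibroblasts many of these genes respond to serum and to handling.

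The promoters of *FOS*, *SGK1* and *GADD45B* are shown because these genes had their highest embryo level in SCNT4c-KG. Each sequence is the 300 bases before a transcript start in the pig genome Sscrofa11.1 of RefSeq, the build the files use, and capitals mark the motifs searched for on both strands. For *FOS* the start is that of the locus in the deposited table, because the RefSeq model holds coding sequence only, and for *SGK1* it is that of 1 of 5 RefSeq starts, the curated transcript.
FOS chr7:98449052-98449351, plus strand: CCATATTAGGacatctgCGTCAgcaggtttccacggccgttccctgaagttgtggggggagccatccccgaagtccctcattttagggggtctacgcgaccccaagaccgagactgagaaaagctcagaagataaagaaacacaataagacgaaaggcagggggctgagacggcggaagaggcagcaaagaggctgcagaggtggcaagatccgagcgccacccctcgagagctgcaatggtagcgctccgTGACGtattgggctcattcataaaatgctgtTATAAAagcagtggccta
SGK1 chr1:29747595-29747894, plus strand: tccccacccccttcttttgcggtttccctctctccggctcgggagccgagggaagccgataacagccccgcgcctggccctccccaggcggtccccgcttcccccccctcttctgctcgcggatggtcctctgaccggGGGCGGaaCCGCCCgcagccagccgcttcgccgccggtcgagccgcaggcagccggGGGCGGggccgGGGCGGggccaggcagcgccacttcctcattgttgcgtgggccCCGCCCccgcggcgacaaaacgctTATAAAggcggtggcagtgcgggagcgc
GADD45B chr2:76111459-76111758, minus strand: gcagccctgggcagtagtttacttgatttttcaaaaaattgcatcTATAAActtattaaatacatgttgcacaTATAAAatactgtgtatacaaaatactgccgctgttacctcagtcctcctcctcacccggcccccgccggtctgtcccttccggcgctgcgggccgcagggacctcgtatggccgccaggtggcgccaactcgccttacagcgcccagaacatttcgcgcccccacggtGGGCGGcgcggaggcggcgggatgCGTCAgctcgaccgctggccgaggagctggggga
The *FOS* window began with a CArG box, the element that serum response factor binds, at position -300 from the start. It also held the letters TGACG, part of the longer CREB site TGACGTCA, at -49 and on the other strand at -283, and a TATAAA at -18. A CArG box was found in 1.59% of the 19569 windows of the same length before protein-coding genes, and among the 10 genes in *FOS* and *IER2* only. Those windows were placed before the RefSeq gene start, a rule that the *FOS* and *SGK1* windows do not follow. The *SGK1* window had no CArG box and no TGACG, but 5 copies of GGGCGG, a letter run that 47.6% of all windows held, and a TATAAA at -28. The *GADD45B* window held TATAAA at -255 and -227, GGGCGG at -58 and TGACG at -34 on the other strand. TATAAA was present in 11.9% of all windows and TGACG in 22.2%. The AP-1 site TGACTCA was in 3.42% of all windows and TGACGTCA in 1.76%, and each was in 0 of the 10, while CACGTG was in 7.29% of windows and in 2 of the 10. These matches are letters in a window and not measured sites.

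Recovered reads ranged from 12354649 to 15390472 in SCNT4c-KG, the shallowest group, and from 17757929 to 22868038 in the other 12 libraries. The deposited values are normalised counts, and a value below is a normalised read count unless stated. The descriptions of the SCNT4c-KG samples carry the names of the table columns used here as SCNT4c, while sample titles and the other column names tell the groups apart, and the titles were followed. *KDM4A* was at 1448 ± 24.9 (SD, n = 3) in the columns named for SCNT4c-KG, against 194 ± 103 in those of SCNT4c, 775 ± 194 in SCNT4c-TDG, which received no *KDM4A* mRNA, 114 ± 59.4 in SCNT8c and 5005 ± 126 in PFF. It was thus highest among the embryo groups in SCNT4c-KG and higher still in PFF. *TDG* was at 55575 ± 5177 in SCNT4c-TDG and at most 4366 ± 436 in the other groups. Of 15 fibroblast markers, 0 were at 0 in PFF and their sum was 13.5% to 14.3% of the signal there, against 0.0115% to 0.0411% in the embryo libraries, where *FBN1* and *COL5A1* were at 0 in all 4 groups. Still, 9 of the 15 had a mean of at least 10 in SCNT4c, SCNT4c-KG and SCNT8c, and 8 in SCNT4c-TDG. The sum of 14 cumulus cell markers stayed below 0.00395% in all embryo libraries, and *FOXL2* and *PTX3* were at 0 in each embryo group. A mean of at least 10 was reached by 7 of the 14 in SCNT4c and SCNT8c, 6 in SCNT4c-KG and 5 in SCNT4c-TDG. The sum of 14 markers of transcripts stored by the oocyte was 0.912% to 1.27% of the signal in SCNT4c. It was 0.497% to 0.840% in SCNT4c-KG and 0.176% to 0.199% in SCNT4c-TDG. Of 13 mitochondrial genes, 9 were at 0 in each group. The sum of the 13 was 7.80% to 8.87% in SCNT4c-TDG and at most 2.17% in the other groups. Both sums are over listed genes and are not the whole of either kind of RNA. The part of these shifts in the results below was not tested. SCNT8c replicate 3 stood apart, since its log2 values over 18942 features correlated with SCNT4c at a mean r of 0.859 and with its own group at 0.772. In pooled embryos and cultures, fewer cells with a transcript and less transcript per cell cannot be told apart. The labels do not state that the libraries came from separate cultures or nuclear transfer sessions, so p-values measure only the spread between these libraries.

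*SGK1* lies at chr1:29625786-29753619 on the plus strand. It set the question, and its values in SCNT4c-KG and SCNT4c-TDG are given as a description. The 3 SCNT4c-KG libraries had values of 498, 482 and 970.4, and those of SCNT4c-TDG 2.51, 3.84 and 6.12. SCNT4c stood at 3.94, 6.12 and 15.8, SCNT8c at 12.1, 12.5 and 11.6, and PFF at 4.89, 6.37 and 1.19. Every SCNT4c-KG library was thus far above all 12 others, and in the order of group means each of the other 4 groups overlapped with its neighbour. The group means were 650.3 ± 277 in SCNT4c-KG and 4.16 ± 1.83 in SCNT4c-TDG (SD, n = 3), a ratio of 156, and the SCNT4c-TDG mean rested on 16 reads in all. An assembled transcript at the *SGK1* locus added 27.8, 26.6 and 32.8 in SCNT4c-KG and 6.69, 13.8 and 4.59 in SCNT4c-TDG, so that the gene entry held 95.7% of the locus signal in the former and 33.2% in the latter.

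*FOS*, at chr7:98449508-98451971 on the plus strand, also had its highest values in SCNT4c-KG. Its values were 168, 138 and 148 in SCNT4c-KG, 34.3, 31.5 and 21.4 in SCNT4c-TDG, 30.8, 23.6 and 53.1 in SCNT4c, and 30.8, 73.2 and 28.5 in SCNT8c. PFF had the lowest mean, from values of 28.1, 17.8 and 10.7. Each SCNT4c-KG library lay above all other libraries, whose groups overlapped with their neighbours. Of the 7 genes beside *SGK1* that reached the minimum mean of 10 in the embryo fit, *FOS* was the 1 with every SCNT4c-KG library above the other 12, which was the case for 8.06% of all 18942 features. Most of the signal at the *FOS* locus lay on an assembled transcript, with 557, 525 and 617 in SCNT4c-KG against 288, 185 and 358 in SCNT4c. With both entries summed, SCNT4c-KG stood at 718 ± 51.1 and SCNT4c at 313 ± 101, a smaller ratio than on the gene entry alone, and SCNT4c-KG still lay above all other libraries, whose highest sum was 411.

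**Figure D1:**
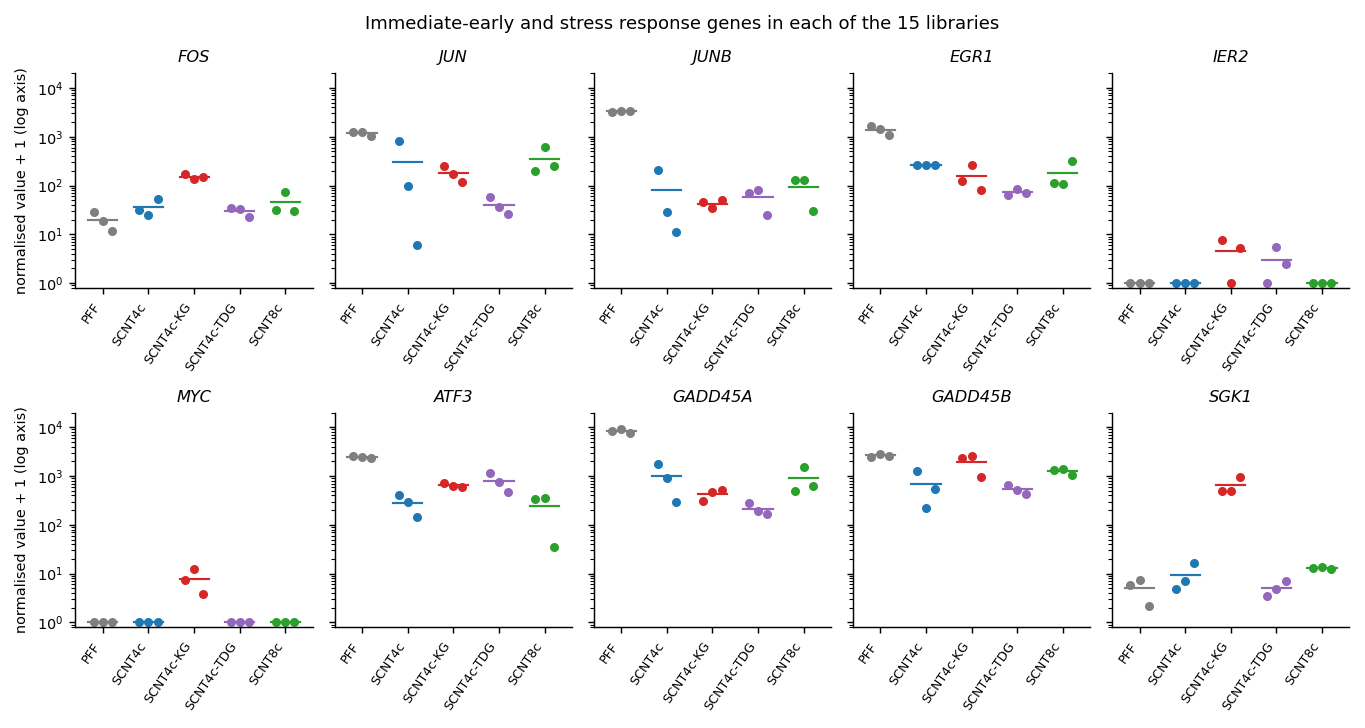
Normalised value plus 1 of the 10 genes in each library, on a logarithmic axis shared by all panels. Points are libraries in 5 groups of 3, and lines are group means. The SCNT4c-KG points of *SGK1*, *FOS* and *MYC* lie above all other points of their panel, those of *MYC* on 15 reads in all. *JUN*, *JUNB*, *EGR1*, *ATF3* and *GADD45A* are highest in all 3 PFF libraries.

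**Figure D2:**
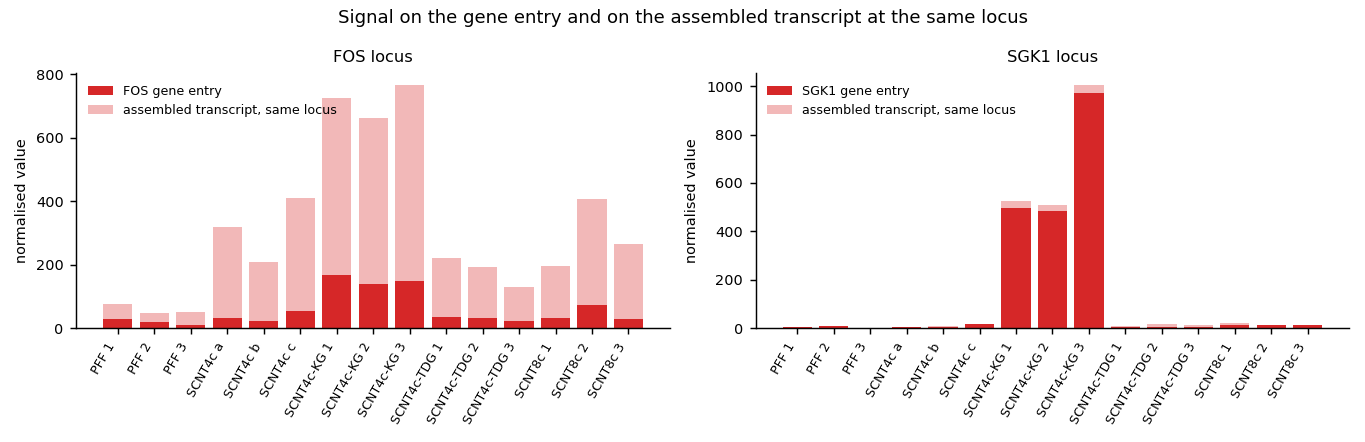
Stacked bars of the normalised value of the gene entry and of the assembled transcript at the same locus, for *FOS* and *SGK1* in each of the 15 libraries. The *FOS* entry holds 11.5% of its locus in SCNT4c and 21.1% in SCNT4c-KG, and *SGK1* is close to 0 outside SCNT4c-KG.

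*GADD45B*, at chr2:76107928-76111458 on the minus strand, had its highest embryo mean in SCNT4c-KG as well. Its values there were 2295, 2574 and 952, against 1267, 218 and 536 in SCNT4c, 661, 517 and 432 in SCNT4c-TDG, and 1321, 1424 and 1032 in SCNT8c. SCNT4c-KG replicate 3 fell below the highest SCNT4c library, so these groups overlapped. PFF, at 2463, 2886 and 2621, had the highest mean and overlapped with SCNT4c-KG. Its relative *GADD45A*, at chr6:144940702-144944089 on the minus strand, did not share this order. It stood at 307, 463 and 526 in SCNT4c-KG, 286, 193 and 164 in SCNT4c-TDG, 1742, 912 and 291 in SCNT4c, and 504, 1561 and 613 in SCNT8c. Its PFF values of 8215, 9286 and 7673 were far above every embryo library.

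The AP-1 genes *JUN* (chr6:153686425-153687635, plus strand) and *JUNB* (chr2:66214086-66219435, minus strand) were spread most widely in SCNT4c. *JUN* had values of 245, 169 and 117 in SCNT4c-KG and 57.7, 36.1 and 25.3 in SCNT4c-TDG, while its 3 SCNT4c libraries ran from 823 in library a over 97.9 in b to 4.98 in c. *JUNB* behaved likewise in SCNT4c, with 205, 28.0 and 9.96, against 44.1, 33.0 and 48.4 in SCNT4c-KG and 68.6, 81.3 and 24.5 in SCNT4c-TDG. The highest SCNT4c library exceeded the lowest by 165-fold for *JUN* and 20.6-fold for *JUNB*, and the SCNT4c range of both genes enclosed all SCNT4c-KG values. In SCNT8c, *JUN* stood at 199, 609 and 248 and *JUNB* at 127, 126 and 29.6. PFF expressed both strongly, with 1275, 1240.5 and 1020.2 for *JUN* and 3162, 3383 and 3434 for *JUNB*. An assembled transcript at the *JUN* locus, at 742, 86.5 and 30.7 in SCNT4c, had the same order of libraries.

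*EGR1* (chr2:140440829-140445302, plus strand) was the most even gene of SCNT4c, with values of 264.2, 258.7 and 264.0, and the highest of these exceeded the lowest by 1.02-fold. Its values were lower in each SCNT4c-KG library, at 126, 257.6 and 81.2, though replicate 2 was only just below the lowest SCNT4c library, and in each SCNT4c-TDG library, at 61.9, 84.4 and 69.6. SCNT8c held 113, 109 and 320.1, and PFF 1685, 1437 and 1074. *ATF3* (chr9:130772259-130829678, minus strand) went the other way in both treated groups, with 715, 615 and 591 in SCNT4c-KG and 1172, 756 and 462 in SCNT4c-TDG, all above the SCNT4c values of 405, 295 and 144. SCNT8c replicates 1 and 2 had 342 and 346 for *ATF3*, and replicate 3, the library that stood apart, had 33.8. PFF held 2600, 2430.0 and 2387.

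*MYC* (chr4:12455141-12460360, minus strand) and *IER2* (chr2:65909638-65912491, minus strand) were listed at or near 0 throughout and were below the minimum mean of 10. The *MYC* entry was at 0 in 12 libraries and at 6.53, 11.4 and 2.85 in SCNT4c-KG, which came to 15 reads in all. An assembled transcript at the *MYC* locus had 15.9, 10.2 and 20.3 in PFF and 0.789, 6.12 and 35.7 in SCNT4c, but 0 in SCNT4c-TDG, so the gene entry does not hold all reads of the locus. *IER2* was at 0 in PFF, SCNT4c and SCNT8c, at 6.53, 0 and 4.27 in SCNT4c-KG and at 0, 4.6 and 1.53 in SCNT4c-TDG, 7 and 8 reads in all. A listed 0 in this table can stand for a locus without usable counts, since 9 of the 13 protein-coding mitochondrial genes, which every cell transcribes, were at 0 in all 15 libraries.

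To test which genes differed after KDM4A and GSK126, SCNT4c-KG was compared with SCNT4c in a limma fit of the 12 embryo libraries on log2(value + 1). A gene counted as changed where the Benjamini-Hochberg adjusted p was below 0.05 and the change exceeded 2-fold. Of 7 genes tested, with *SGK1* left out because its values there set the question, 2 rose. *FOS* rose by a log2 fold change of 2.13 ± 0.60 (SE, adjusted p = 0.0123, limma) and *GADD45B* by 1.75 ± 0.53 (adjusted p = 0.0172, limma). Among all 18942 features 37.2% were called, 17.6% as higher, so 2 of 7 is near the background. The median log2 fold change of the 7 genes was 1.11, which is the value of *JUN*, and that of all features -0.30. *JUN* was also the middle gene with edgeR and with DESeq2, at -0.57 in both. The medians of all features there were -0.14 and -0.088. *ATF3*, at 1.30 ± 0.71 (adjusted p = 0.16, limma), had no overlap between the groups but did not pass, and neither did *EGR1* at -0.92 ± 0.53 (adjusted p = 0.181, limma), whose SCNT4c-KG values were all below those of SCNT4c. Of all features 24.3% had every SCNT4c-KG library above SCNT4c and 29.6% every one below, against 2 and 1 of the 7 genes. In a limma fit of the 2 groups alone *ATF3* passed (adjusted p = 0.0195). *GADD45A* had a log2 fold change of -0.87, *JUNB* of 0.071 and *JUN* of 1.11 ± 1.19, while the *JUN* mean was lower in SCNT4c-KG (177 ± 64.5) than in SCNT4c (308.5 ± 448) and the sign turned with edgeR and DESeq2. The *JUNB* sign turned there too. The calls were close to the threshold. *FOS* passed in 5 of the 6 fits with a library of either group left out. Without SCNT4c library b, *FOS* had an adjusted p of 0.0509 (limma, log2 fold change 1.87) and *GADD45B* of 0.0969 (log2 fold change 1.11), and *GADD45B* also missed the threshold without SCNT4c-KG replicate 1 (1.56, adjusted p = 0.0637) or 2 (1.48, adjusted p = 0.0769). Without SCNT4c library a, *JUN* passed as higher (2.81, adjusted p = 0.039, limma), and without c *GADD45A* passed as lower (-1.58, adjusted p = 0.0337). The assembled transcript added to *FOS* reduced its log2 fold change to 1.25 (adjusted p = 0.0232, limma).

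In SCNT4c-TDG, compared with the same SCNT4c libraries in the same fit, 2 of 7 tested genes fell and 0 rose. *EGR1* fell by 1.86 ± 0.53 on the log2 scale (SE, adjusted p = 0.0139, limma), with no overlap between the groups, and *GADD45A* fell by 1.89 ± 0.58 (adjusted p = 0.02, limma), again without overlap. Of all features 33.3% were called, 15.7% as higher and 17.6% as lower, while 33.2% had every SCNT4c-TDG library below SCNT4c and 25.2% every one above. The median log2 fold change was -0.24 over the 7 genes and -0.26 over all features. *ATF3* had a log2 fold change of 1.52 ± 0.71 (adjusted p = 0.113, limma) with every SCNT4c-TDG library above SCNT4c, and it passed with edgeR on recovered reads (1.8, adjusted p = 0.0437), with DESeq2 (1.81, adjusted p = 0.0163) and in a limma fit of the 2 groups alone (adjusted p = 0.0127). *FOS* was at -0.24 ± 0.60, *JUN* at -1.03 ± 1.19, *JUNB* at 0.39 ± 0.94 and *GADD45B* at -0.0021 ± 0.53. The signs of *FOS* and *GADD45B* turned under another scaling, and that of *JUNB* with edgeR and DESeq2. *JUN* passed as lower with DESeq2 (-2.59, adjusted p = 0.0214) and, in limma, without SCNT4c library c (-2.89, adjusted p = 0.0161). The *GADD45A* call was lost without SCNT4c library a (-1.30, adjusted p = 0.109, limma) or b (adjusted p = 0.0683), or without SCNT4c-TDG replicate 2 (adjusted p = 0.0621) or 3 (adjusted p = 0.0713), and that of *EGR1* without SCNT4c-TDG replicate 1 (-1.76, adjusted p = 0.0528). The comparisons of both treated groups share the 3 SCNT4c libraries, so a high or low value there moves both.

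The contrast that set the question, SCNT4c-TDG against SCNT4c-KG, is described without a test. Beside *SGK1*, which was chosen for it, 4 of the 7 genes in the fit had every SCNT4c-TDG library below every SCNT4c-KG library, where 44.4% of all features had no overlap and 24.6% were lower in this way. These were *FOS*, *JUN*, *GADD45B* and *GADD45A*, with a mean 5.22-fold, 4.46-fold, 3.62-fold and 2.02-fold higher in SCNT4c-KG, and nothing is read from their number. *JUNB*, *EGR1* and *ATF3* overlapped, and of these *JUNB* and *ATF3* had the higher mean in SCNT4c-TDG. Set against SCNT4c, these genes and *SGK1* differed. *SGK1* and *FOS* were above all SCNT4c libraries in SCNT4c-KG and overlapped with them in SCNT4c-TDG, *GADD45A* was below all SCNT4c libraries in SCNT4c-TDG and overlapped with them in SCNT4c-KG, and *JUN* and *GADD45B* overlapped with SCNT4c in both.

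**Figure D3:**
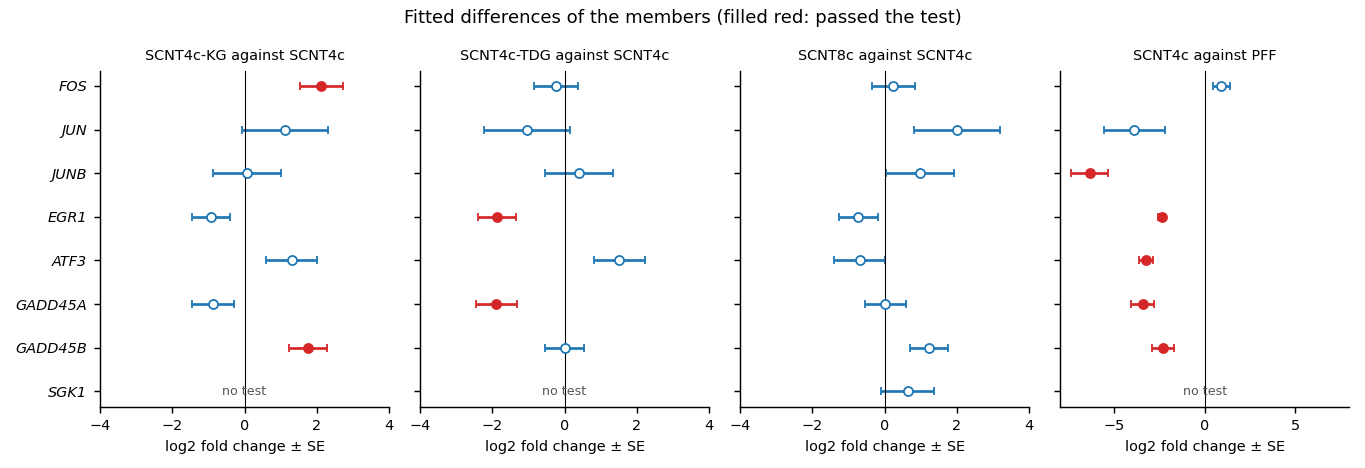
Log2 fold change with its standard error from limma for the 8 genes in the fits, 1 panel per comparison, with a wider axis for SCNT4c against PFF. Filled red points passed the test, open blue points did not, and "no test" marks *SGK1* where its values set the question or were too low for the fit. In the SCNT4c-KG panel *FOS* and *GADD45B* are filled, and in the SCNT4c-TDG panel *EGR1* and *GADD45A*.

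From the 4-cell to the 8-cell stage of untreated embryos, 0 of 8 tested genes changed, where 5.79% of all features did, 2.62% as higher and 3.16% as lower. The count was also 0 with edgeR and with DESeq2. At an unadjusted p under 0.05 each of the 3 tools passed 1 gene, in limma *GADD45B*, with a log2 fold change of 1.24 ± 0.53 (SE, adjusted p = 0.139, limma). *SGK1*, which reached the minimum mean over the 12 libraries only through SCNT4c-KG, had 0.64 ± 0.73 (adjusted p = 0.584, limma), and in a fit of the 2 groups, which it entered on its values there, the adjusted p was 0.743. *JUN* had 1.99 ± 1.19 (adjusted p = 0.278, limma). All 8 genes overlapped between the stages, while 23.5% of all features did not. Their median log2 fold change was 0.44, against -0.31 for all features. This median lies between *FOS* (0.24) and *SGK1* (0.64). It thus rests in part on a gene that entered the fit through SCNT4c-KG, and nothing is read from it. Without SCNT8c replicate 3, the library that stood apart, 0 genes were called and 2 had an unadjusted p under 0.05, while the calls over all features went from 1096 to 6133.

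Compared with the donor fibroblasts, several of the genes were lower in SCNT4c. Of 7 genes tested in a limma fit of the 6 libraries of SCNT4c and PFF, 5 were lower in SCNT4c and 0 higher, where 78.2% of all features were called and 38.5% as lower. The log2 fold change of *JUNB* was -6.37 ± 1.02 (SE, adjusted p = 0.00137, limma), of *GADD45A* -3.43 ± 0.62 (adjusted p = 0.0024), of *ATF3* -3.25 ± 0.38 (adjusted p = 0.000297), of *EGR1* -2.39 ± 0.20 (adjusted p = 6.62e-05) and of *GADD45B* -2.32 ± 0.61 (adjusted p = 0.0119). With *JUN*, 6 of the 7 had every SCNT4c library below PFF, which 42.1% of all features had. *JUN*, at -3.90 ± 1.69, did not pass (adjusted p = 0.071, limma), but it did without SCNT4c library a (-5.59, adjusted p = 0.0107), with its assembled transcript added (-3.74, adjusted p = 0.0331) and with a pseudocount of 10 (-3.42, adjusted p = 0.0424). *FOS* was the exception, with a log2 fold change of 0.91 ± 0.48 (adjusted p = 0.121, limma). Its value depended on the setting, from -0.15 with quantile normalization to 2.39 (adjusted p = 0.000736) with the assembled transcript added, and it passed as higher in SCNT4c with all libraries scaled to the same total, with edgeR and with DESeq2. *GADD45B* did not pass with quantile normalization (-1.51, adjusted p = 0.0549) or edgeR (-1.26, adjusted p = 0.0593). PFF and embryo RNA were extracted with different kits, and in this comparison the kit and the cell type cannot be told apart. The median log2 fold change was -3.25 over the 7 genes, -1.12 over all known genes in the fit and 0.066 over all features, and at the same total in each library the last was 0.86, so these falls are given on the deposited scale.

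Divided by exon length, the normalised counts can be compared between genes. In PFF the order was led by *GADD45A* with 5799 ± 567 per kb (SD, n = 3), *GADD45B* with 1397 ± 112 and *ATF3* with 1119 ± 50.8, and *FOS* followed far behind with 16.5 ± 7.64. *SGK1*, at 1.05 ± 0.68 per kb, was lowest of the 8 genes with signal. In SCNT4c-KG the order began with *GADD45B*, at 1020.1 ± 456, *GADD45A*, at 299 ± 77.8, and *ATF3*, at 290 ± 29.8, and *SGK1* reached 165 ± 70.3, close to *JUN* at 146 ± 53.2 and *FOS* at 133 ± 13.3, whose ranges overlapped with that of *SGK1*. The *FOS* value uses the coding length of 1143 bases, because the RefSeq model holds no untranslated sequence. These levels are of gene entries only, and in SCNT4c-KG the entry held 21.1% of the locus signal for *FOS*, 65.6% for *JUN* and 95.7% for *SGK1*, so the nearness of *SGK1* to *FOS* does not extend to the loci.

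Over the 12 embryo libraries, *JUN* went with *GADD45A* (Pearson r of log2 values 0.76, across n = 12 libraries) and with *JUNB* (0.72), and *FOS* with *SGK1* (0.92) and *GADD45B* (0.68), whereas *EGR1* and *ATF3* had the most negative r of the 28 pairs (-0.66). These are descriptions without a p, over libraries that share groups and depths. The 3 SCNT4c-KG libraries form a cluster of their own for *FOS* and *SGK1*. Over the other 9 embryo libraries their r was 0.46. *JUN*, *JUNB*, *GADD45A* and *ATF3* had the same order in SCNT4c, highest in library a and lowest in c, so the high values of these 4 genes lay in the same pool of embryos.

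Likeness to *SGK1* uses the values in SCNT4c-KG and SCNT4c-TDG that set the question, so it is given as a description. The known genes most like *SGK1* over the 12 embryo libraries, among 12798 with a mean of at least 10, were *RPS20* (r = 0.97), which encodes a protein of the small ribosomal subunit, *DKC1* (r = 0.96), which encodes the pseudouridine synthase dyskerin, 2 genes for histidine tRNA of the name *TRNAH-GUG* (both r = 0.96) and LOC100525692 (r = 0.96). *RPS20* stood at 195311, 163374 and 131601 in SCNT4c-KG and at 8751 to 15475 in the other embryo libraries, and *DKC1* at 11400.3, 14119 and 15512 against 683 to 2347. The tRNA genes were at 0 in all but 1 of the other embryo libraries and reached the minimum mean only through SCNT4c-KG. *FOS* ranked at 44 on this scale, *GADD45B* (r = 0.59) at 1453 and the other 5 members in the fit between 4630 and 8083, with r from -0.21 to 0.18. Over the 9 embryo libraries outside SCNT4c-KG, r with *SGK1* was 0.54 for *RPS20*, 0.58 for *DKC1*, 0.63 for LOC100525692 and -0.092 for 1 tRNA gene, and the other tRNA gene was at 0 throughout. With Spearman's rho in place of Pearson's r, 0 of these 5 genes stayed among the top 5.

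**Figure D4:**
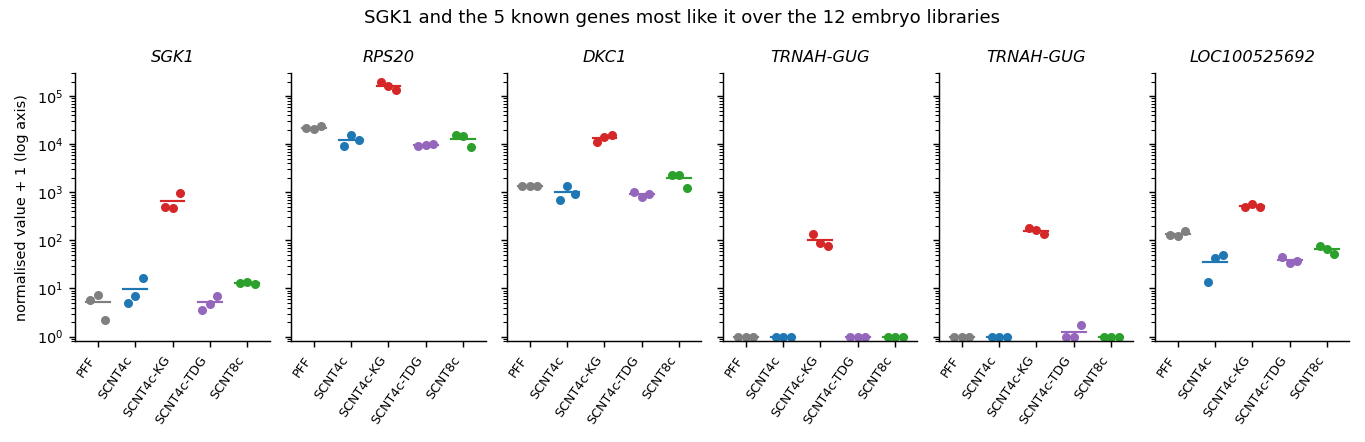
Normalised value plus 1, on a logarithmic axis, of *SGK1* and the 5 known genes with the highest Pearson r to it over the 12 embryo libraries. Points are libraries, lines are group means, and PFF, which the measure did not use, is shown beside the embryo groups. All 6 panels have the SCNT4c-KG points above those of the other embryo groups.

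Lists of genes around these 10 were counted in each comparison, without the 10 themselves. In SCNT4c-KG, 4 of 14 tested genes of the AP-1 and immediate-early list rose and 2 fell, beside 17.6% and 19.6% of all features, with a median log2 fold change of 0.33 against -0.30. *KLF10*, an early target of TGF-beta, rose from 1.95 ± 1.78 in SCNT4c to 605 ± 217 (SD, n = 3 each), with a log2 fold change of 7.87 (adjusted p = 6.39e-06, limma) that, with SCNT4c near 0, ran from 5.63 with a pseudocount of 10 to 9.24 with one of 0.1, and *JUND*, another *JUN* gene, rose from 95.1 ± 56.9 to 1126 ± 315 (3.67, adjusted p = 0.00012). *KLF6* fell from 489 ± 342 to 40.3 ± 35.2 (-4.65, adjusted p = 0.0131, limma). Among genes that restrain the response, 7 of 18 rose and 2 fell (median 0.91). They included *TOB1* and *BTG2*, both antiproliferative factors that promote mRNA deadenylation, at log2 fold changes of 6.02 and 5.37 (adjusted p = 7.32e-07 and 1.04e-06, limma), and *DUSP1*, a phosphatase of MAP kinases, at 1.67 (adjusted p = 0.00215). In SCNT4c-TDG this list had the same counts, 7 higher and 2 lower of 18, with *TOB1* at 6.20 and *DUSP1* at 1.41 (adjusted p = 9.42e-07 and 0.00734, limma), while 2 of 14 AP-1 and immediate-early genes rose and 0 fell (median 0.85, against -0.26 for all features). Over all features 15.7% rose and 17.6% fell in SCNT4c-TDG, so 2 of 14 is near the background.

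The kinases upstream gave a mixed count, beside 17.6% of all features higher and 19.6% lower in SCNT4c-KG and 15.7% and 17.6% in SCNT4c-TDG. In SCNT4c-KG, 2 of 14 tested MAPK pathway genes rose and 5 fell, with the stress kinases *MAPK14* at -3.27 (adjusted p = 6.56e-05, limma) and *MAPK9* at -2.45 (adjusted p = 0.000444). In SCNT4c-TDG, 3 rose and 1 fell. Of 17 genes for SGK kinases, their activators and glucocorticoid targets, 2 rose and 2 fell in SCNT4c-KG, and 3 rose and 0 fell in SCNT4c-TDG. *PDPK1*, which encodes the kinase that activates SGK1 by phosphorylation, rose in both, at 2.44 in SCNT4c-KG and 3.08 in SCNT4c-TDG (adjusted p = 0.000558 and 8.91e-05, limma), and *RICTOR*, a subunit of the mTOR complex that phosphorylates SGK1, rose in SCNT4c-TDG (1.61, adjusted p = 0.00143). *MTOR*, the kinase of that complex, fell in SCNT4c-KG (-1.48, adjusted p = 0.0448, limma), a call that was lost, among other settings, with edgeR (-1.23, adjusted p = 0.119), with DESeq2 (-1.14, adjusted p = 0.107), and without SCNT4c library b or c or SCNT4c-KG replicate 1 or 2 (adjusted p from 0.104 to 0.167, limma).

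In the integrated stress and unfolded protein response, the setting of *ATF3*, 9 of 21 tested genes rose and 2 fell in SCNT4c-KG, and 6 rose and 5 fell in SCNT4c-TDG, with medians of 0.86 and 0.10. Over all features, 17.6% rose and 19.6% fell in SCNT4c-KG, and 15.7% rose and 17.6% fell in SCNT4c-TDG. The pseudokinase *TRIB3* rose in SCNT4c-KG from 12.3 ± 12.4 to 198 ± 53.1 (4.42, adjusted p = 0.00212, limma), and asparagine synthetase, *ASNS*, a target of ATF4, fell in both treated groups, with -2.35 in SCNT4c-KG and -1.69 in SCNT4c-TDG (adjusted p = 0.000186 and 0.0025). *XBP1*, whose spliced mRNA encodes a factor of the unfolded protein response, rose in SCNT4c-TDG from 1.95 ± 1.28 to 247 ± 46.1 (6.47, adjusted p = 4.65e-05, and 4.42 with a pseudocount of 10). In the list of the p53 pathway and GADD45 partners, 2 of 17 rose and 7 fell in SCNT4c-KG, and 3 rose and 5 fell in SCNT4c-TDG, whereas the list medians were above 0, at 0.46 and 0.51. *PMAIP1*, which encodes the BH3-only protein NOXA, fell in both, with -2.52 and -2.83 (adjusted p = 0.0004 and 0.000164, limma), and *CDK1*, whose kinase GADD45 proteins inhibit, rose in both, with 2.23 and 2.73 (adjusted p = 5.52e-05 and 1.04e-05).

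The *MYC* network had 3 of 14 higher and 5 lower in SCNT4c-KG, where 17.6% and 19.6% of all features were, and 4 higher and 6 lower in SCNT4c-TDG, where 15.7% and 17.6% were. *MLX*, which encodes a dimer partner in this network, fell, with -2.49 and -3.26 (adjusted p = 2.5e-06 and 3.38e-07, limma), and the kinase gene *PIM1* rose in SCNT4c-KG, with 4.62 (adjusted p = 1.8e-06). Of 7 tested genes that act with GADD45 proteins in active DNA demethylation, 3 rose and 1 fell in SCNT4c-KG, and 4 rose and 2 fell in SCNT4c-TDG, where 1 of the 4 is the induced *TDG* itself. *TDG* was also 1 of the 3 that rose in SCNT4c-KG, from 1713 ± 802 to 4366 ± 436 (1.46, adjusted p = 0.00195, limma). *MBD4*, a thymine glycosylase like TDG, rose in both, from 7.51 ± 3.18 in SCNT4c to 288 ± 54.2 in SCNT4c-KG and 329 ± 72.2 in SCNT4c-TDG (adjusted p = 1.06e-05 and 9.36e-06, limma).

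At the 8-cell stage, 6 of the 122 tested genes of the 8 lists changed against SCNT4c, 4.92% beside 5.79% of all features. Of 14 AP-1 and immediate-early genes, 0 did. When the 2 groups were fitted alone, 0 of the 6 calls remained, but 0 of all features were called in that fit. Against PFF, the AP-1 and immediate-early list had 17 of 20 tested genes lower in SCNT4c and 0 higher, and the stress response list 22 of 24 lower and 1 higher, beside 38.5% of all features lower and 39.7% higher. Their median log2 fold changes were -4.49 and -3.89, against -1.12 for all known genes in the fit. *CYR61*, a matrix protein gene that serum induces, went from 26329 ± 4354 in PFF to 99.5 ± 91.3 in SCNT4c (adjusted p = 5.87e-05, limma), and *NDRG1*, whose product SGK1 phosphorylates, from 4511 ± 236 to 35.5 ± 25.5 (adjusted p = 0.000194). The counts over lists are descriptions and carry no test of their own.

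**Figure D5:**
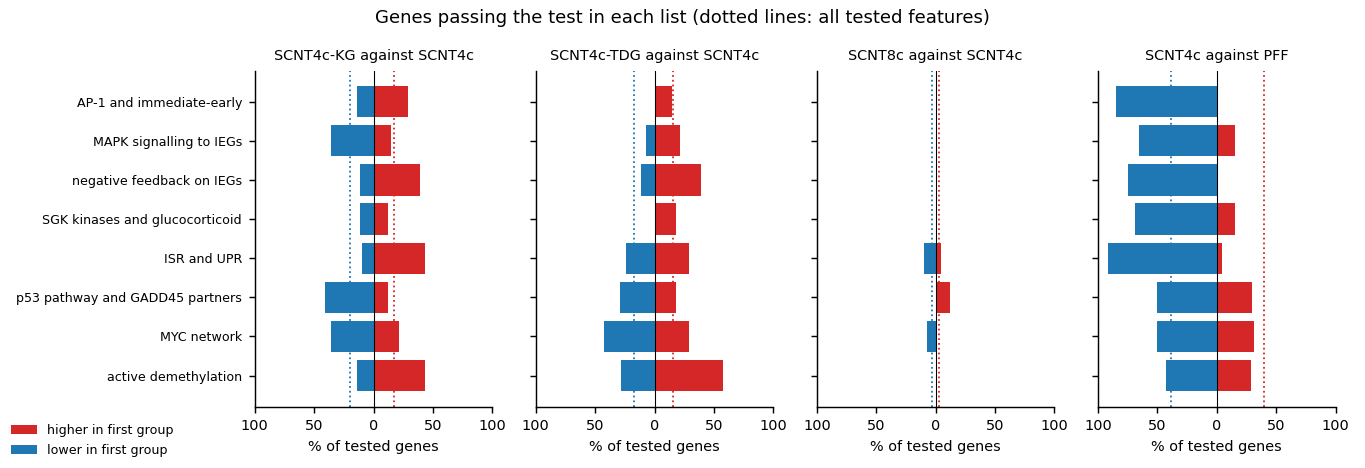
Share of the tested genes of each of 8 lists that passed the test as higher (red, to the right) or lower (blue, to the left) in the group named first, 1 panel per comparison. IEGs are immediate-early genes, ISR and UPR the integrated stress and unfolded protein responses, and dotted lines are the shares over all tested features. The list of genes that restrain immediate-early genes has 7 of 18 genes higher in both treated groups, and in the panel against PFF the AP-1 and stress response bars point to the left.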

How the data were processed

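RNA-seq of PFF, SCNT4c, SCNT4c-KG, SCNT4c-TDG and SCNT8c was analysed, with 3 libraries in each group. RNA came from PFF by TRIzol and from embryos by a PicoPure kit, and SMARTer cDNA was read from both ends for 150 bp. Per the submitters' processing notes and the methods, the authors used Trimmomatic (0.39) for trimming, STAR (2.5.3a) for alignment to the pig genome Sscrofa11.1, StringTie (2.1.2) for assembly and HTSeq for counting. The strand setting of the counting is not given in the sources used here. The deposited values are a normalized signal, in which each library's counts were scaled by 1 factor, and 100% of them came out as whole reads within 0.01 reads. Of 43535 entries, 241 repeats of an ID were removed.

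Features whose mean reached 10 were tested on log2(value + 1) with limma 3.58.1 in R 4.3.3, with Benjamini-Hochberg adjustment over all of them. This scale understates the change of low features. The 12 embryo libraries were fitted together, and SCNT4c against PFF in a fit of 6 libraries. Alternatives were edgeR 4.0.16 and DESeq2 1.42.0 on recovered reads, a pseudocount of 0.1 or 10, other minimum values and scalings, a gene summed with assembled transcripts of its locus, a fit of 2 groups, no fold limit and each library left out. With 3 against 3 libraries an exact permutation p cannot go below 0.1.

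The members and lists were chosen with earlier results of these data known. From each list, at most 3 genes per direction and comparison could be named, those with the largest changes that averaged 100 or more in the group where they were higher. SCNT4c libraries are called a, b and c because their labels carry conflicting numbers. The descriptions of the SCNT4c-KG samples also carry the column names of SCNT4c, and groups were taken from the titles, which fit the column names. Promoters and exon lengths came from RefSeq's Sscrofa11.1, and no protein sequences were used here.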

Additional observations from a re-analysis of the deposited data

How the results depend on the processing

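No paired analysis was possible because the labels number the SCNT4c libraries in conflicting ways, and the remaining comparison of numbered groups carried no test. The 2 calls in SCNT4c-KG and the 2 in SCNT4c-TDG remained under each alternative that kept all libraries, but with DESeq2 4 genes were called in SCNT4c-TDG, *ATF3* and *JUN* being added. With all features above 0 tested, *MYC* was added in SCNT4c-KG, on an entry with 15 reads, all in that group. With each library left out, the number of genes called ranged from 0 to 3 in SCNT4c-KG, from 1 to 3 in SCNT4c-TDG, and from 5 to 6 in SCNT4c against PFF, and it was 0 throughout in SCNT8c. Over all features, 1096 were called in SCNT8c, but 1662 with a pseudocount of 10, 601 with all features above 0, 2733 with DESeq2 and 0 in a fit of the 2 groups (3582 at an unadjusted p under 0.05, limma), and from 31 to 6133 with a library left out, the highest without SCNT8c replicate 3 and the lowest without SCNT4c library b. In SCNT4c against PFF, 15083 were called and 10020 with a minimum mean of 50, a limit that tests fewer features. Of the 5 genes most like *SGK1*, 0 remained among the top 5 with Spearman's rho and 1 with a pseudocount of 10.

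Directions turned only for genes that had not passed in the main fit. Of these, *JUN* in both treated groups and *FOS* against PFF passed in other settings. In SCNT4c-KG, *JUNB* was at -0.087 with a pseudocount of 10, -0.016 at the same total, -0.73 with edgeR and -0.72 with DESeq2, and *JUN* at -0.57 with edgeR and -0.57 with DESeq2. In SCNT4c-TDG, *FOS* was at 0.077 with quantile normalization and 0.026 at the same total, *GADD45B* at 0.18, 0.27 and, with DESeq2, 0.0037, and *JUNB* at -0.090 with edgeR and -0.11 with DESeq2. In SCNT8c, *FOS* was at -0.12 with its assembled transcript and *ATF3* at 0.086 with DESeq2. In SCNT4c against PFF, *FOS* was at -0.15 with quantile normalization. With each library left out, log2 fold changes ranged from -0.75 to 2.81 for *JUN* and -0.87 to 1.25 for *JUNB* in SCNT4c-KG. In SCNT4c-TDG they ranged from -2.89 to 0.66 for *JUN*, -0.55 to 1.56 for *JUNB*, -0.49 to 0.078 for *FOS* and -0.64 to 0.63 for *GADD45B*, and in SCNT8c from -0.19 to 0.56 for *FOS*, -0.68 to 0.61 for *GADD45A* and -1.25 to 0.41 for *ATF3*. The cause of these turns was not tested. The median log2 fold change of all features moved from -0.26 to 0.017 in SCNT4c-TDG and from 0.066 to 0.86 in SCNT4c against PFF when libraries were scaled to the same total. SCNT4c-KG, with the fewest reads, gives the least precise low values.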
